A study of Ziziphus jujuba with 15 samples.

Results

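The gene gene10053 (LOC107417576), 1 of 32876 genes in the expression table, was described over 15 leaf libraries of a heat-sensitive jujube cultivar. It was picked by its ID because its level under heat was already known to be high in these libraries. Its levels, differences from 0 d and ranks are therefore given as a description, with no test. The study annotates it as a zinc finger A20 and AN1 domain-containing stress-associated protein 8-like gene. That annotation is by likeness to proteins of other plants.

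The libraries came from seedling leaves of Ziziphus jujuba ‘HS’ (HS-Haoqing1), the heat-sensitive of 2 cultivars in the study, exposed to heat stress for 0, 1, 3, 5 or 7 d. The study's methods state the heat for daytime hours only, and they do not describe the 7 d samples. There were 3 libraries per time point (replicates a, b and c), and the 0 d libraries served as the control. All 15 libraries were of this 1 cultivar, and unheated plants of the same age at 1 to 7 d were not analysed here. The study's methods describe leaves of several plants per sample, while the labels speak of pooled RNA, so p-values below measure only the spread between libraries, which may in part be technical.

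Stress-associated proteins are small plant proteins with zinc-binding domains of the A20 type, the AN1 type or both. The A20 domain takes its name from a human protein that edits ubiquitin chains, and in rice and Arabidopsis several members bind ubiquitin or help to attach it to other proteins. Genes of the family are known in rice for their response to cold, salt and drought, and in several plants for their response to heat. No protein or promoter sequence of gene10053 was used here.

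Levels are FPKM, the fragments of a gene per kilobase of its length and scaled to the number of fragments mapped in the library. Before heat stress, gene10053 stood at 213 FPKM in replicate a, 186 in replicate b and 188 in replicate c, a mean of 196 ± 15.1 (SD, n = 3). After 1 d it stood at 1093, 1044 and 1027 FPKM in replicates a, b and c, a mean of 1055 ± 34.4 (SD, n = 3). Every library at 1 d was thus far above every library at 0 d. At 3 d the values were 2088, 2457 and 2629 FPKM, a mean of 2391 ± 276 (SD, n = 3), the highest of the 5 time points. At 5 d they were 1731, 2003 and 2139 FPKM, a mean of 1958 ± 208 (SD, n = 3). At 7 d they were 1318, 1242 and 1342 FPKM, a mean of 1301 ± 51.9 (SD, n = 3). The gene was therefore at its lowest before heat, at its highest at 3 d, and at 7 d back to a level between those of 1 d and 5 d.

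**Figure D1:**
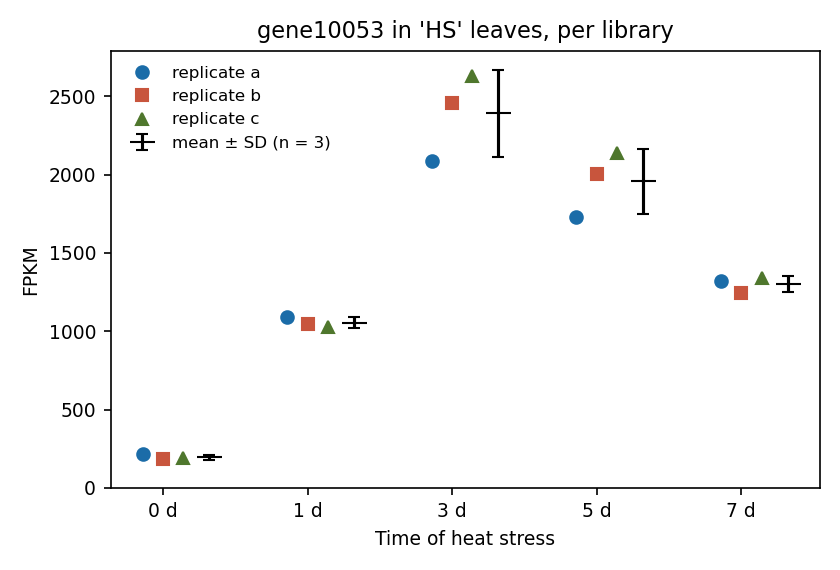
FPKM of gene10053 in each of the 15 libraries, by time of heat stress (time points drawn evenly spaced), with circles, squares and triangles for replicates a, b and c and bars for the mean ± SD of 3 libraries. The 3 libraries at 0 d lie between 186 and 213 FPKM and the 3 at 3 d between 2088 and 2629.

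From the lowest to the highest mean, the order of the time points was 0 d, 1 d, 7 d, 5 d and 3 d. Of the neighbours in this order, 3 d and 5 d overlapped, since replicate c at 5 d (2139 FPKM) exceeded replicate a at 3 d (2088 FPKM). The other neighbours were apart. The highest value at 1 d was 1093 and the lowest at 7 d was 1242 FPKM, and the highest at 7 d was 1342 and the lowest at 5 d was 1731 FPKM. When the libraries were rescaled by median-of-ratios factors, which ranged from 0.915 to 1.10, 3 d (2039 to 2381) and 5 d (1669 to 2012) no longer overlapped. Whether the ranges of 3 d and 5 d overlapped thus depended on the scaling.

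The 3 replicates of a time point were close. The coefficient of variation of gene10053 was 7.74% before heat and, in order of time, 3.26%, 11.5%, 10.6% and 3.99% at the 4 heat time points. Pooled over the time points, its SD between replicates on the log2(FPKM + 1) scale was 0.12, against a median of 0.26 over all 19925 genes tested (those reaching 1 FPKM in 3 or more libraries). Of these genes, 860 had a mean of 100 FPKM or more at 0 d. The median is therefore mostly that of less abundant genes, and the SD of genes of like level was not compared. Replicate a was the lowest of the 3 at 3 d and 5 d and the highest at 0 d and 1 d.

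On the log2(FPKM + 1) scale, the difference of gene10053 from 0 d was 2.43 after 1 d of heat, 3.60 after 3 d, 3.31 after 5 d and 2.73 after 7 d, each with a limma standard error of 0.13. These correspond to 5.37-fold, 12.1-fold, 9.94-fold and 6.62-fold. Limma draws the spread of a gene towards that of other genes, so the standard error is not from gene10053 alone. The first day of heat carried 39.1% of the gain in mean FPKM reached at 3 d. The means at 5 d and 7 d kept 80.3% and 50.3% of that gain. Across all genes tested the median log2 difference was 0.04, 0.12, 0.10 and 0.04 at 1, 3, 5 and 7 d. The libraries are of whole leaves, so a change in the cells that hold the transcript cannot be told apart from a change of its amount per cell.

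Rank was taken by FPKM among all 32876 genes of a library, with 1 for the highest. Gene10053 ranked 290th, 387th and 370th in replicates a, b and c at 0 d. It ranked 45th, 41st and 45th at 1 d and 15th, 11th and 7th at 3 d. It ranked 17th, 15th and 15th at 5 d and 35th, 33rd and 30th at 7 d. The gene thus moved from ranks of 290 to 387 to ranks of 7 to 17 at 3 d and 5 d, and no library at 7 d returned it below rank 35. The median rank moved by at most 9 places when only the 29293 genes of the genome annotation were ranked.

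**Figure D2:**
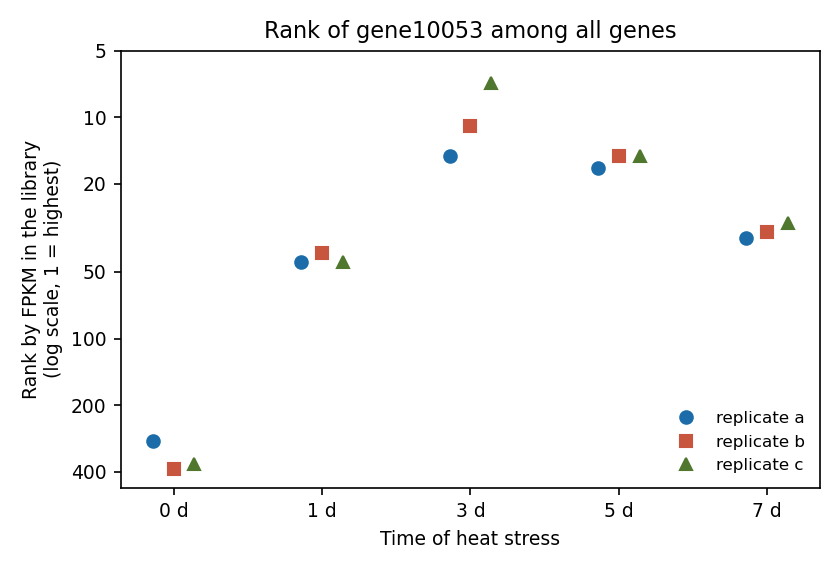
Rank of gene10053 by FPKM among all genes of each library (vertical axis on a log scale, 1 the highest), by time of heat stress (evenly spaced), with 1 symbol per replicate letter. The 3 libraries at 0 d lie at ranks 290 to 387 and the 3 at 3 d at ranks 7 to 15.

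As a share of all FPKM in a library, gene10053 held 0.0325% to 0.0383% at 0 d and 0.186% to 0.196% at 1 d. It held 0.379% to 0.480% at 3 d, 0.321% to 0.384% at 5 d and 0.219% to 0.244% at 7 d. By gain in mean FPKM over 0 d it stood 21st of all genes after 1 d of heat, 4th after 3 d, 5th after 5 d and 10th after 7 d. By log2 difference, which favours genes that start low, it stood 110th, 33rd, 77th and 88th of the 19925 genes tested. Among the 860 tested genes with a mean of 100 FPKM or more at 0 d, it stood 2nd, 1st, 3rd and 2nd. The limit of 100 FPKM was chosen after the values had been seen.

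Some other genes also combined a high level with a large rise. At 3 d 43 tested genes had a mean of 1000 FPKM or more, and 7 of these, gene10053 included, were more than 5-fold above their own mean at 0 d. After 1 d, 2 of 45 such genes were, after 5 d 11 of 38, and after 7 d 3 of 41. With these limits, also chosen after the values had been seen, 11 genes met both at 1 or more of the 4 heat time points. Gene10053 met them at all 4, at 1 d by a narrow margin (1055 FPKM and 5.39-fold). Of the others, gene30886 met them at 3, 5 and 7 d and stood at a mean of 900.5 FPKM at 1 d, and gene1448 met them at 1, 5 and 7 d. From a mean of 1.82 FPKM at 0 d, gene1448 exceeded gene10053 in both level and fold at 1 d (1058 FPKM, 580-fold) and 7 d (1492 FPKM, 818-fold). Gene23606 did so at 5 d (2639 FPKM, 22.7-fold). At 3 d no gene that met the limits exceeded gene10053 in both.

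At 3 d, 9 genes had a mean above that of gene10053. They include LOC107423325 (photosystem II 10 kDa polypeptide) at 5714 ± 421 FPKM and LOC107430831 (CP29, an antenna protein of photosystem II) at 3667 ± 694 FPKM (SD, n = 3). Both were already abundant at 0 d, at 3029 ± 317 and 2514 ± 320 (SD, n = 3). Another 3 are annotated as photosynthesis antenna proteins, the light-harvesting proteins of leaves. The remaining annotated gene was LOC107432484, a homolog of SUI1, which in yeast helps the ribosome choose the start codon. It rose from 363 ± 29.6 FPKM at 0 d to 2815 ± 580 at 3 d (SD, n = 3), and stood at 2033 ± 111 at 5 d and 1588 ± 109 at 7 d. Of the 6 annotated genes above gene10053 at 3 d, the SUI1 homolog was the 1 gene that had, like it, started below 1000 FPKM.

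The labelled tissue was checked by 7 antenna protein genes. At 0 d 6 of them had a mean of 1000 FPKM or more, and the seventh had 20.3. Their summed level was 7550 to 14488 FPKM in the 0 d libraries, 22509 to 23782 in those at 1 d, 11637 to 15167 at 3 d, 10803 to 14654 at 5 d and 21897 to 26588 in the 7 d libraries. The sums thus were highest at 1 d and 7 d, not at 3 d, when gene10053 was highest. Their part in the level of gene10053 was not tested. Relative depth, as the spacing of the lowest FPKM values gives it, ran from 0.901 to 1.31 of replicate a at 0 d, and the FPKM of a library summed to 539846 to 572468. Replicates b and c correlated with each other across genes at 0.966 to 0.969 and with replicate a at 0.906 to 0.946, so that a stands somewhat apart at every time point.

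Likeness in pattern was measured as the root mean square difference over the 15 libraries between log2(FPKM + 1) profiles, each taken relative to its own mean at 0 d. The median distance of a tested gene from gene10053 was 2.69, and 10 genes lay within 0.50. The nearest was gene30886 at 0.19, which the annotation used here does not name. Its FPKM was 175, 189 and 157 in replicates a, b and c at 0 d and 1054, 743 and 905 at 1 d. It reached 1659, 2614 and 1749 at 3 d, stood at 1682, 1646 and 2280 at 5 d, and at 1268, 1121 and 1102 at 7 d. It matched gene10053 in level as well as in pattern, with mean levels of 0.839 to 0.955 of those of gene10053 at the 5 time points. Library by library the ratio ran from 0.665 to 1.07, wider than the means, and the highest library at 3 d was replicate b for gene30886 and replicate c for gene10053. Whether the genes share sequence, and with it reads, was not tested.

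Of the other 9 nearest genes, 6 are annotated. LOC107433052 (aconitate hydratase, which converts citrate to isocitrate) lay at 0.32, with means of 1.82 ± 0.653 FPKM at 0 d, 27.99 ± 4.87 at 3 d and 18.8 ± 9.61 at 7 d (SD, n = 3). LOC107431489 (a ubiquitin-conjugating enzyme E2, which hands ubiquitin on to substrates together with a ligase) lay at 0.37. Its means were 85.6 ± 4.08 FPKM before heat and 531 ± 31.7, 1057 ± 146, 1122 ± 45.5 and 911 ± 65.3 FPKM after 1, 3, 5 and 7 d (SD, n = 3). It differed from gene10053 mainly late, with a log2 difference from 0 d of 3.396 at 7 d against 2.73 for gene10053. LOC107423567 (UPF0481, of unknown function) and LOC107424945 (uncharacterized) both lay at 0.43, and LOC107426501 (SERF-like, a family that in worms affects protein aggregation) at 0.44. LOC107423567 had means of 1.05 ± 0.152 FPKM at 0 d and 13.9 ± 2.46 at 3 d (SD, n = 3). Those of LOC107424945 were 0.127 ± 0.0298 and 15.3 ± 5.16 FPKM (SD, n = 3). The added 1 shrinks the rise of genes that start this low, so their likeness to gene10053 does not hold for the ratio of FPKM values. LOC107424027, a CCCH zinc finger gene of the kind that binds RNA, lay at 0.49. Apart from gene30886, LOC107431489 was the 1 gene of the 10 nearest with a mean of 1000 FPKM or more at 3 d.

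**Figure D3:**
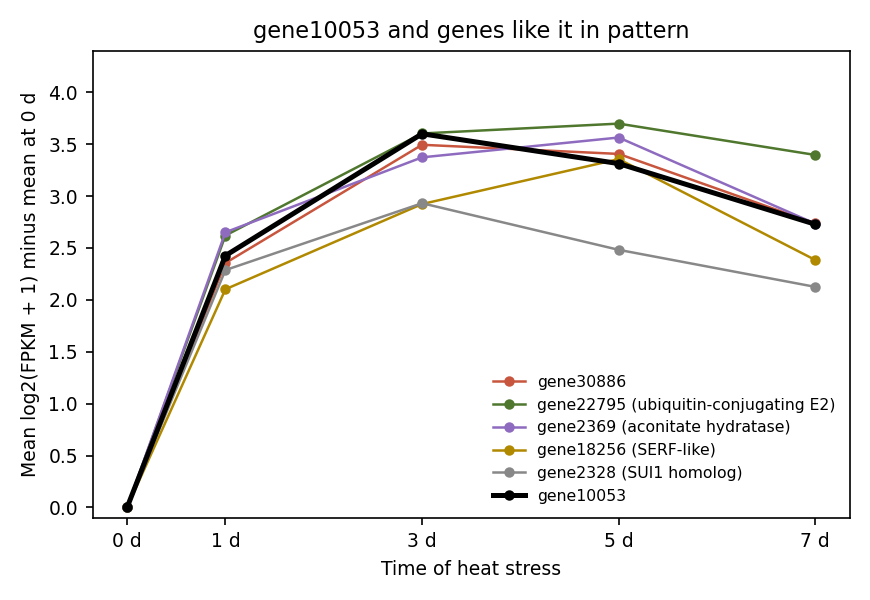
Mean log2(FPKM + 1) relative to 0 d (vertical axis, n = 3 libraries per point) against days of heat stress for gene10053 (thick line), 4 of its 10 nearest genes and the SUI1 homolog gene2328. The line of gene10053 reaches 3.60 at 3 d and 2.73 at 7 d, that of the E2 gene 3.60 and 3.396, and that of gene2328 2.93 and 2.13.

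The set of nearest genes depended on the measure. With median-of-ratios scaling all 10 remained among the 10 nearest, and without replicate a, b or c 7, 8 and 9 remained. With Pearson's correlation in place of distance 2 remained, and with 0.1 in place of 1 added before the logarithm 5 remained. By these 6 alternatives gene30886 was nearest in 4 and the second nearest in the other 2, with Pearson's correlation and without replicate a.

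The table lists 19 of the 20 genes whose ID numbers lie within 10 of gene10053. Of these, 15 were tested. In limma at a Benjamini-Hochberg adjusted p of 0.01 and a 2-fold change, none of the 15 was called higher at 1, 3 or 7 d and 1 was at 5 d, with a log2 difference of 1.21. One was lower at 1 d, 1 at 3 d, 3 at 5 d and none at 7 d. Over all genes tested the shares called higher were 4.49%, 7.53%, 9.28% and 4.14% after 1, 3, 5 and 7 d and those called lower 5.68%, 6.39%, 8.79% and 4.88%, so with 15 genes these counts are no result about the neighbours. The highest mean among the 19 under heat was 212 FPKM, so that none came near the level of gene10053.

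The genes of 4 roles around gene10053 were compared between each heat time point and 0 d. They are other zinc finger genes, heat stress transcription factors (which switch on heat-shock genes), chaperones (which keep or restore protein folding) and genes of ubiquitin transfer. They number 106 distinct genes, gene10053 left out, of which 95 passed the filter. Most were taken from the study's tables of genes that changed under heat in its other, heat-resistant cultivar. In addition, 9 zinc finger genes and 5 heat stress transcription factors came from its table of transcription factors changed in these ‘HS’ libraries. The lists are therefore no independent evidence of a direction. A gene was called where limma, run over all 19925 genes, gave it an adjusted p (Benjamini-Hochberg) up to 0.01 with a change of at least 2-fold.

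Over all genes tested, 4.49% were called higher and 5.68% lower after 1 d. The shares were 7.53% higher and 6.39% lower after 3 d, 9.28% higher and 8.79% lower after 5 d, and 4.14% higher and 4.88% lower after 7 d. Of the 95 list genes, 26 were higher and 4 lower after 1 d, 32 higher and 4 lower after 3 d, 37 higher and 7 lower after 5 d, and 24 higher and 5 lower after 7 d. Their median log2 difference was 0.76, 0.84, 0.98 and 0.75. Without replicate b the calls fell from 30, 36, 44 and 29 to 2, 6, 19 and 2, and without replicate c to 4, 9, 20 and 2, while without replicate a they were 38, 53, 56 and 34. The calls over all genes fell likewise, at 1 d from 895 higher and 1132 lower to 36 and 24 without replicate b and 48 and 43 without replicate c, at 5 d from 1850 and 1751 to 586 and 385 or 649 and 438, and at 7 d from 824 and 972 to 28 and 24 or 14 and 10. The background shares thus depended on which replicates were kept, as the list counts did, and the cause was not tested. Median-of-ratios scaling shifted the median of all genes at 3 d by -0.12 and turned the share of calls that were higher from 54.1% to 41.4%. At 5 d the share went from 51.4% to 41.5% with that scaling and to 46.5% with quantile normalization, so that at both time points the majority of calls turned from higher to lower. With median-of-ratios scaling the lists still held 28 higher and 6 lower entries at 3 d, a gene in more than 1 list being counted in each.

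Of 50 tested zinc finger genes, 8 were higher and 3 lower after 1 d, 11 higher and 3 lower after 3 d, 13 higher and 4 lower after 5 d, and 8 higher and 4 lower after 7 d. The higher ones were 16%, 22%, 26% and 16% of the 50, against 4.49%, 7.53%, 9.28% and 4.14% over all genes. The list was drawn largely from genes changed under heat, so that excess is no independent evidence. The lower ones were 6%, 6%, 8% and 8% of the 50, near the 5.68%, 6.39%, 8.79% and 4.88% over all genes. In a fit of the 6 libraries compared, 7 were higher and 2 lower at 7 d. The median log2 difference of the zinc finger genes was 0.58 at 3 d. The CCCH type held 4, 5, 6 and 5 of the higher genes, out of 9 tested, and none of the lower ones. With at most 8.79% of all genes lower, the absence of lower genes among 9 is no result about the type. RING genes, which act as ubiquitin ligases, held 3 higher and 2 lower of 14 at 5 d. Over all genes 9.28% were higher and 8.79% lower, so with 14 genes these counts are no result about the type. The largest rise at 5 d among zinc finger genes was that of LOC107424027 (CCCH), from 2.21 ± 1.32 FPKM at 0 d to 29.9 ± 4.92 at 5 d (SD, n = 3), a log2 difference of 3.33 ± 0.33 (SE; limma adjusted p = 1.05e-05). The largest fall was that of LOC107418218 (RING), from 34.7 ± 2.62 to 8.16 ± 1.02 FPKM, a log2 difference of -1.97 ± 0.21 (SE; limma adjusted p = 1.73e-05). None of the 50 reached the mean level of gene10053 at any heat time point, the highest being 715 FPKM at 1 d. At 3 d none had a larger log2 difference, and at 1 d and 5 d 1 had.

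Of 7 tested heat stress transcription factors, 3, 3, 4 and 2 were higher at 1, 3, 5 and 7 d and none was lower, with a median log2 difference of 1.61 at 5 d. The higher ones were 42.9%, 42.9%, 57.1% and 28.6% of the 7, against 4.49%, 7.53%, 9.28% and 4.14% of all genes. The list was drawn largely from genes changed under heat, so that excess is no independent evidence. With 7 genes, and at most 8.79% of all genes lower, the absence of lower ones is no result about them. LOC107429964 had the largest rise at 5 d. It read 2.21, 3.27 and 3.65 FPKM in replicates a, b and c at 0 d and 16.5, 26.9 and 26.8 at 5 d, a log2 difference of 2.58 ± 0.35 (SE; limma adjusted p = 9.12e-05). Without replicate b or c the adjusted p was 0.0145 or 0.01003, short of the threshold. The groups did not overlap, yet the highest mean of any of the 7 was 66.6 FPKM, well below gene10053 at 0 d.

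Of 24 tested chaperone genes, 12, 13, 14 and 10 were higher at 1, 3, 5 and 7 d, and 2 were lower, both at 5 d. These 2 are 8.33% of the 24, near the 8.79% of all genes called lower at 5 d. The higher ones were 50%, 54.2%, 58.3% and 41.7% of the 24, against 4.49%, 7.53%, 9.28% and 4.14% of all genes. The list was drawn largely from genes changed under heat, so that excess is no independent evidence. The median log2 difference of the 24 was 1.37, 1.54, 1.74 and 1.36. The 7 d count is less firm, since a fit of the 6 libraries compared called 4 of them higher. Replicates at 7 d lay far apart for several, as for LOC107424261 (119 ± 151 FPKM), and closer for others, as for LOC107423735 (234 ± 45.5; SD, n = 3). At 3 d 6 of the 24 had a larger log2 difference than gene10053, from means of 0.165 to 5.01 FPKM at 0 d to means of 15.4 to 267 at 3 d. At 1, 5 and 7 d 9, 8 and 8 of the 24 had a larger log2 difference than gene10053, in each case fewer than did not. The highest mean of the 24 at 3 d was 267 FPKM. The largest rise at 5 d was that of LOC107430166 (heat shock protein 83, of the HSP90 family), with 0.621, 0.387 and 0.349 FPKM at 0 d and 110, 124 and 127 at 5 d in replicates a, b and c. Its log2 difference was 6.38 ± 0.59 (SE; limma adjusted p = 6.45e-06). At 7 d it stood at 271 FPKM in replicate a against 34.1 and 30.99 in b and c, whereas gene10053 read 1318, 1242 and 1342 in the same libraries. The largest fall was that of LOC107419886 (a class V small heat shock protein by likeness), from 77.2 ± 8.66 FPKM at 0 d to 21.1 ± 0.683 at 5 d (SD, n = 3), a log2 difference of -1.82 ± 0.29 (SE; limma adjusted p = 0.000293), and the adjusted p was 0.0192 without replicate b and 0.0216 without replicate c.

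**Figure D4:**
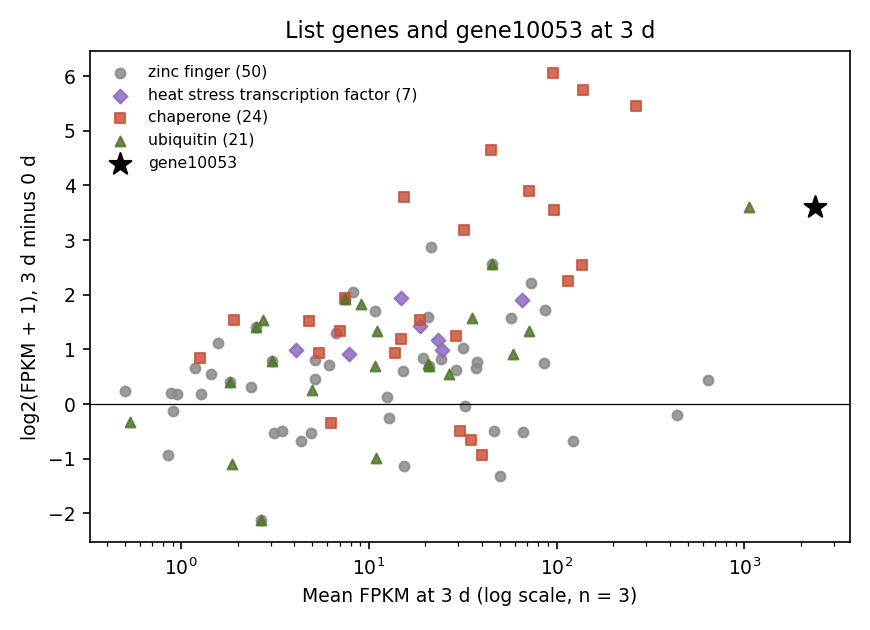
Log2(FPKM + 1) at 3 d minus 0 d (vertical axis) against mean FPKM at 3 d (log scale, n = 3) for the tested genes of the 4 lists (numbers in the key, some genes in more than 1 list) and gene10053 (star). The star stands at 2391 FPKM and 3.60, to the right of all list genes, and 6 chaperone genes lie above it, and the E2 gene lies at the same height.

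Of 21 tested genes of ubiquitin transfer, 4, 7, 9 and 5 were higher at 1, 3, 5 and 7 d and 2 were lower at each. These 2 are 9.52% of the 21, against 4.88% to 8.79% of all genes, so with 21 genes the lower counts are no result. The higher ones were 19.0%, 33.3%, 42.9% and 23.8% of the 21, against 4.49%, 7.53%, 9.28% and 4.14% of all genes. The list was drawn largely from genes changed under heat, so that excess is no independent evidence. In a fit of the 6 libraries compared, 6 were higher and 1 lower at 7 d. The largest rise at 5 d was that of the E2 gene LOC107431489 described above. It read 81.6, 89.7 and 85.4 FPKM in replicates a, b and c at 0 d. In the same order it read 890, 1123 and 1158 FPKM at 3 d, and 1098, 1094 and 1175 FPKM at 5 d. No library at 0 d came near those under heat, and the log2 difference at 5 d was 3.70 ± 0.12 (SE; limma adjusted p = 5.79e-09). The largest fall was that of LOC107418223 (a U-box ubiquitin ligase), from 5.14 ± 1.11 to 0.589 ± 0.165 FPKM (SD, n = 3), a log2 difference of -1.94 ± 0.22 (SE; limma adjusted p = 2.45e-05), with 0.01034 without replicate c. The E2 gene was the 1 list gene above 1000 FPKM at 3 d, at less than the level of gene10053.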

How the data were processed

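RNA from leaves of ‘HS’ jujube was sequenced by the authors, who trimmed the reads (Trimmomatic 0.36 and FastQC are named in the submitters' processing notes), aligned them with Bowtie 2 and TopHat 2 to the genome of jujube and assembled transcripts with Cufflinks. The genome build is not given in the sources used here. The labels name another extraction kit and sequencing instrument than the methods, and the 7 d libraries are not described in the methods. The authors deposited FPKM, 1 value per gene and library, and since the table used here holds FPKM alone, a test for counts was not run. All 15 columns of the table were used, each mapped to a time point and letter by its label, and 0 columns were left out. Without counts, precision was taken from the spread between replicates, and a library's value carries no interval of its own.

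Values were taken as log2(FPKM + 1). Genes reaching 1 FPKM in 3 or more libraries entered limma 3.58.1 (R 4.3.3; eBayes with an intensity trend, time point the only term, all 15 libraries, 10 residual degrees of freedom), each heat time point against 0 d, with Benjamini-Hochberg adjustment over all 19925 genes. A fold change is on this log2(FPKM + 1) scale and understates that of low genes. The limma fit was first tested on simulated data with known changes. Other values were computed in Python 3.11.15 with numpy 2.4.6 and pandas 2.3.3. Gene names come from the annotation in the study's supplementary tables, which cover 1244 of the IDs. No values of those tables were used, but they largely hold genes that the study called changed under heat. Presence in them thus decided which genes could enter the lists or be named by annotation among the nearest. The 4 lists were built from the annotated names by key words, and leaf antenna genes were added as tissue markers. Named genes were gene10053, the largest rise and fall at 5 d among the called genes of each list, the 10 genes nearest to gene10053 in pattern (2 at most by ID alone) and the 5 nearest annotated ones, and the annotated genes above it at 3 d. Gene10053, the lists and these rules were chosen with earlier results of these data known. The alternatives were another added constant, median-of-ratios scaling, quantile normalization, leaving out each replicate letter or library, a replicate block, no filter, no intensity trend, other sets of libraries and other thresholds. Columns of the authors' own comparisons were not used.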

Additional observations from a re-analysis of the deposited data

How the results depend on the processing

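The log2 difference of gene10053 from 0 d kept its sign under all alternatives run. With median-of-ratios scaling it was 3.46 at 3 d, and with quantile normalization 3.89 at 3 d and 3.44 at 5 d, moves larger than its SD between replicates of 0.12. Leaving out a letter or a library gave 2.39 to 2.49 at 1 d, 3.50 to 3.76 at 3 d, 3.22 to 3.46 at 5 d and 2.68 to 2.79 at 7 d. The number of list genes called ran from 2 to 38 at 1 d, 6 to 53 at 3 d, 19 to 56 at 5 d and 2 to 34 at 7 d when a letter or a library was left out, the lowest without replicate b and, at 7 d, also without replicate c. A fit of the 6 libraries compared called 17 at 7 d, and without a minimum fold change 46 were called at 1 d. Leaving out a letter left 2 libraries per time point and fewer residual degrees of freedom, and the cause of the fall without b or c but not without a was not tested. Deviations of same-letter libraries from their group means correlated at -0.10 to 0.12, so the letters were not taken to pair the libraries. With the letter as a replicate block, 31, 35, 42 and 30 list genes were called at 1, 3, 5 and 7 d. Every time point holds each letter, so such a block could not change the differences of gene10053. The FPKM values gave depth only relative to another library, and no lower limit of detection was derived from them.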
